A study of Sus scrofa with 28 samples.

Results

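The genes described here belong to the interferon response, to chemokine and cytokine signalling and to antigen presentation, as measured in loin muscle of young pigs. They were taken by symbol: all probe sets whose gene name starts with IFI, IFIT, IFN, ISG, OAS, GBP, IRF, STAT, CXC, CCL, CCR, TLR, TNF, C1Q, SLA, or with IL or CD and a digit, together with PSMB8, PSMB9, TAP1, TAP2, MX1, MX2, B2M, RSAD2, USP18, DDX58 and C3, with a pair of symbols left out. The rule found 81 of the 5226 probe sets in the table, carrying the names of 62 of its 2275 named genes. Several probe sets were present for 13 of these genes, which held 32 of the 81. By role, 24 probe sets belonged to interferon-induced effectors, 7 to transcription factors, 17 to antigen presentation, 9 to chemokines and their receptors, 3 to interleukins and their receptors, 5 to the tumor necrosis factor family, 2 to complement and 10 to other CD antigens. The remaining 4 (C1QTNF2, C1QTNF3, C1QTNF6 and CCRN4L) were taken in only because their symbols start with the same letters. No named probe set was of an interferon, an interferon receptor, a Toll-like receptor, PSMB8, PSMB9 or TAP2, so these were not analysed here.

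Interferons are secreted by cells that sense viral nucleic acid and by activated lymphocytes. Their receptors act through JAK kinases on STAT proteins, which together with IRF factors switch on a large set of antiviral effector genes, the class I pathway that shows cytosolic peptides at the cell surface and, for interferon gamma, the class II pathway that shows peptides taken up from outside. In skeletal muscle, class II molecules, complement C1q and scavenger receptors such as CD163 are known mainly from macrophages and other cells between the fibres, while most nucleated cells can respond to interferon.

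Gene expression was measured with the Affymetrix porcine array in longissimus dorsi muscle of 28 male piglets slaughtered at weaning, at 28 days of age. Of these, 14 were purebred Iberian (IB) and 14 were crossbreds of Duroc boars and Iberian sows (DU×IB), so all piglets were nursed by Iberian dams and the genetic types differed in the sire breed. Each piglet gave 1 array and no treatment was applied. The study's methods state that the crossbred piglets came from fewer litters than the purebred ones, but the labels do not tie piglets to litters, so littermates enter all tests as independent animals and the p-values cover the spread between these piglets only. Values are log2 levels after GCRMA normalization, comparable between piglets for a probe set but not between probe sets, and the files gave no detection call. All differences are DU×IB minus IB.

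The arrays fell into a hybridization series of 16, with 8 piglets of each genetic type, and one of 12, with 6 of each, told apart by the signal of bacterial spike-in controls (mean log2 8.69 to 9.44 against 5.55 to 6.55). The first principal component held 47.3% of the variance of the table and was related to the series (r2 = 0.796) and not to genetic type (r2 = 6.72e-05). Series was therefore a block in the fit, and values within each series are given where they differ. None of 12 listed muscle fibre genes was among the named probe sets, so the tissue label could not be checked against them. Of the 5226 probe sets, which were kept for variation among arrays, 2535 had no gene name and 46 had several. Listed genes were found by name, so a gene not found may still be among these. The loin is a bulk tissue, in which fewer cells of a type and less RNA per cell cannot be told apart.

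Few of the 81 probe sets were called between genetic types, and most differences were negative. With limma and a Benjamini-Hochberg adjusted p under 0.10 over all probe sets, 4 of the 81 (4.94%) differed between DU×IB and IB, beside 2.77% of all probe sets. IRF1 was the 1 member lower in DU×IB (background 0.708%), and CD59, C1QTNF3 and C1QTNF6 were the 3 higher (background 2.07%). All 4 stand in the list of genes that the study chose on these same arrays, so their calls are no independent evidence. At an unadjusted p under 0.05, 14 members were lower and 6 higher in DU×IB, which is 17.3% and 7.41% of the 81 beside 5.4% and 8.42% of all probe sets. The difference was negative for 62 of the 81 (76.5%, beside 47.5% of all probe sets) and had the same sign in both series for 64 (79.0%, beside 55.6%). Both counts include all 24 interferon-induced effectors, which varied together among piglets, so the members are not independent counts. The median difference was -0.29 over the members and 0.02 over all probe sets. Without the series block only C1QTNF3 was called among the members, beside 0.995% of all probe sets. Within the series of 16 no member was called (0.172% of all), and 9 were at an unadjusted p under 0.05 (4.42% of all), and within the series of 12 only C1QTNF3 was (4.38% of all). The interaction of genetic type and series passed for no member by limma (0.0% of all), with 4 members at an unadjusted p under 0.05 beside 6.37% of all probe sets.

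**Figure D1:**
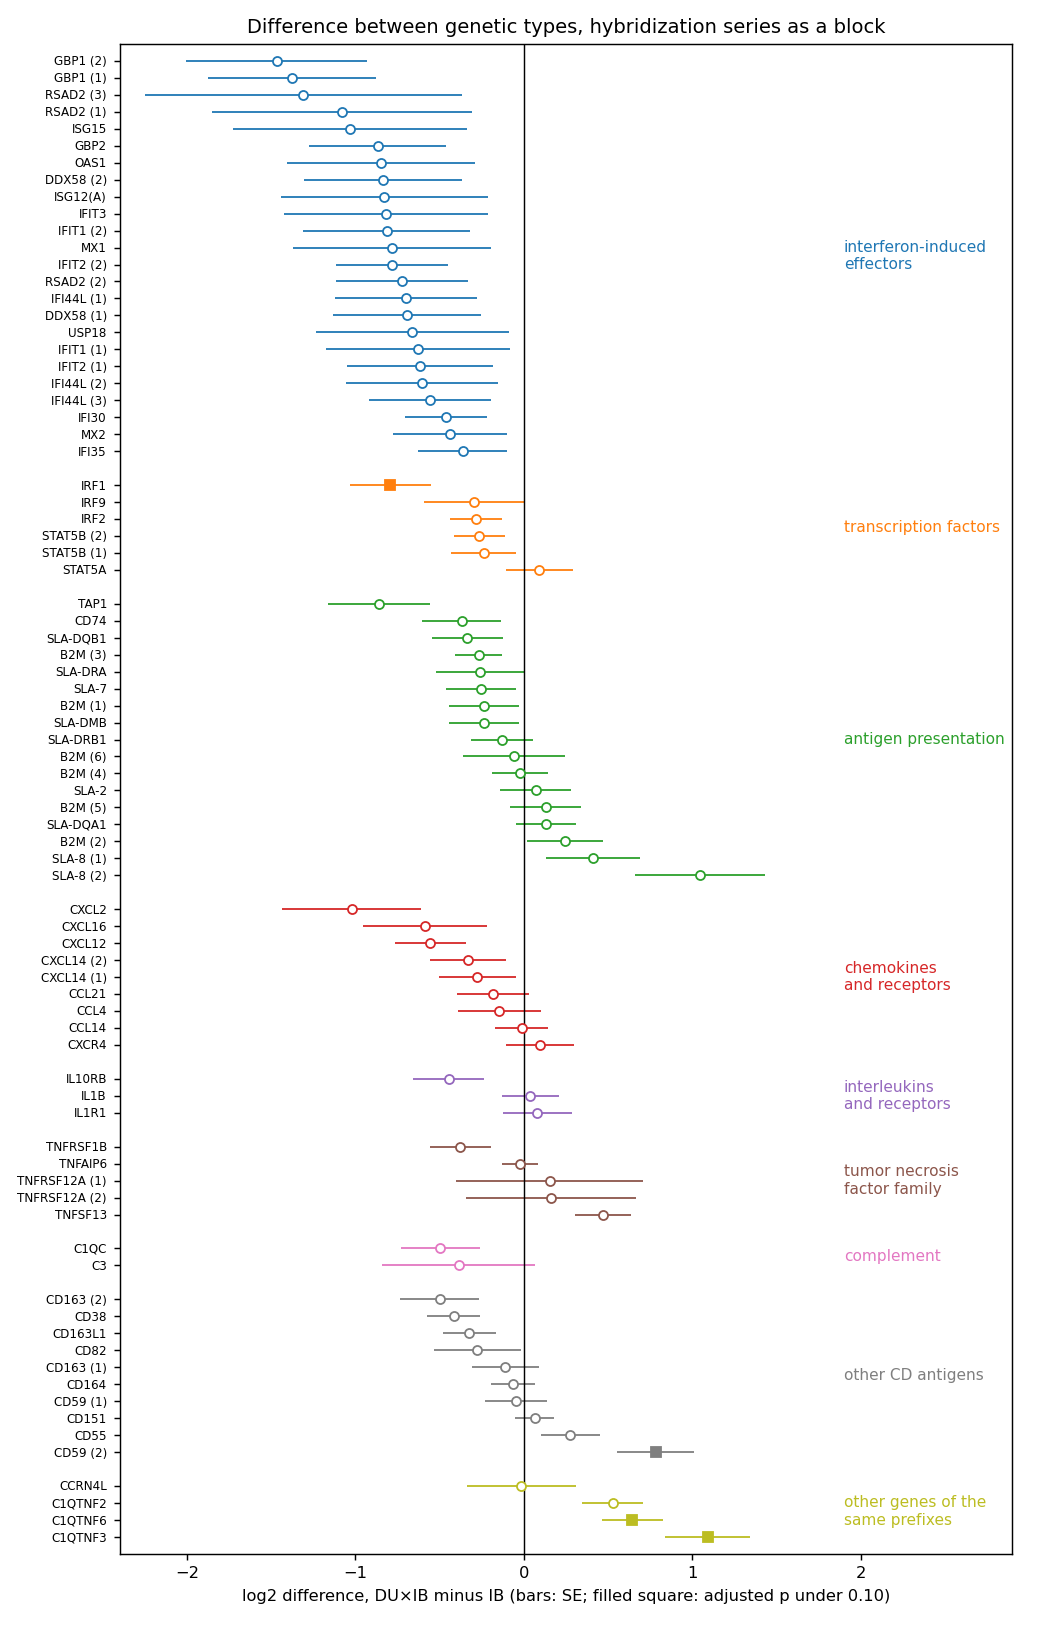
Log2 difference between DU×IB and IB with its standard error for 80 of the 81 probe sets, grouped by role, from the limma fit with hybridization series as a block. Filled squares mark the 4 members with an adjusted p under 0.10, and all 24 interferon-induced effectors lie left of 0. Numbers in brackets tell probe sets of one gene apart in order of their identifiers.

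The interferon-induced effectors had lower means in DU×IB for all 24 probe sets of 16 genes, in both series, but none passed the adjusted threshold. Their differences ran from -1.47 to -0.36 with a median of -0.78, beside 0.02 over all probe sets. Adjusted p-values ran from 0.178 to 0.688, and 4 of the 24 had an unadjusted p under 0.05: both GBP1 probe sets, GBP2 and one of IFIT2. The median was -0.76 within the series of 16 and -0.70 within the series of 12.

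RSAD2 encodes viperin, an enzyme that halts viral RNA synthesis. Its probe set Ssc.286.1.S1_s_at ranged over the 14 IB piglets from 3.61 through a median of 7.94 to 12.30. The 14 DU×IB piglets ranged from 2.93 through 6.42 to 9.93. Piglets of both genetic types thus spread over most of the same range, and only IB 1, IB 6 and IB 13 lay above all DU×IB piglets. The difference was -1.31 with a standard error of 0.94 (adjusted p = 0.601). The other RSAD2 probe sets, AFFX-Ss_IRP_3_at and AFFX-Ss_IRP_M_at, had differences of -1.08 and -0.72.

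ISG15, a ubiquitin-like protein that is attached to other proteins in virus-infected cells, followed the same piglets (Ssc.11557.1.A1_at). The IB levels had a lowest value of 5.98, a median of 8.26 and a highest of 12.97. In DU×IB the lowest was 5.61, the median 6.96 and the highest 10.48. The groups overlapped except for 3 IB piglets at the top and 3 DU×IB piglets at the bottom. The difference of -1.03 ± 0.70 (SE) had an adjusted p of 0.568. USP18, which removes ISG15 from its targets and dampens the interferon receptor, had a difference of -0.66 ± 0.57 (adjusted p = 0.687).

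MX1 encodes a GTPase that traps incoming viruses. In IB its probe set Ssc.221.1.S1_at ranged from 6.38 through 8.03 to 12.00, and in DU×IB from 6.39 through 7.12 to 10.18. The lower ends of the groups coincided and the upper end was higher in IB. The difference was -0.78 ± 0.59 (adjusted p = 0.618), and that of its neighbour MX2 was -0.44 ± 0.34 (adjusted p = 0.640). OAS1, which makes adenylate chains that activate RNase L, had a difference of -0.85 ± 0.56 (adjusted p = 0.550), with 6 IB piglets above all DU×IB piglets and 2 below all of them.

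IFIT1, IFIT2 and IFIT3 bind foreign RNA and lie next to each other in the RefSeq annotation of the pig genome (Sscrofa11.1). IFIT2 (Ssc.30532.1.A1_at) had IB levels of 4.64 at the lowest, 4.77 at the median and 8.13 at the highest. In DU×IB it lay between 4.34 and 5.38 with a median of 4.74. The medians were nearly equal, and the difference of -0.78 ± 0.33 (unadjusted p = 0.0256, adjusted p = 0.280) came with 5 IB piglets above all DU×IB piglets. IFIT3 had a difference of -0.82 ± 0.60, and the IFIT1 probe sets had -0.63 ± 0.55 and -0.81 ± 0.50, with adjusted p-values from 0.512 to 0.688.

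GBP1 and GBP2 are guanylate-binding GTPases that respond strongly to interferon gamma, and they too are neighbours in the annotation. For GBP1 (Ssc.29054.1.A1_at) the IB piglets ranged from 5.89 through 7.24 to 12.66 and the DU×IB piglets from 5.28 through 6.51 to 7.69. Below the median of IB lay 12 of the 14 DU×IB piglets, and 4 IB piglets lay above all of them. The difference was -1.38 ± 0.50, the lowest adjusted p of the effectors (0.178). The other GBP1 probe set had -1.47 ± 0.54 (adjusted p = 0.182), and GBP2 had -0.87 ± 0.41 (adjusted p = 0.330).

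The remaining effectors were lower on average in DU×IB without passing the test. DDX58 encodes RIG-I, a sensor of viral RNA in the cytosol, and its probe sets had differences of -0.69 and -0.84. At the second, Ssc.21.1.S1_s_at, the medians were low and nearly equal (1.95 in IB and 1.94 in DU×IB), and 3 IB piglets lay above all DU×IB piglets. The 3 probe sets of IFI44L had -0.70, -0.60 and -0.56, and ISG12(A), a small interferon-induced protein, had -0.83. IFI30, a thiol reductase that unfolds antigens in lysosomes for class II presentation, had -0.46 ± 0.24 (adjusted p = 0.411). IFI35 had the difference nearest 0, -0.36 ± 0.27.

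The range of the effectors was set by single piglets. IB 1 had the highest level of all 28 piglets for 19 of the 24 probe sets and was among the top 3 for 23. IB 13 was among the top 3 for 21 and IB 6 for 16. IB 12 was the highest for both GBP1 probe sets and GBP2, and among the top 3 for 8 of the 24. The mean level over the 24 probe sets was 9.61 in IB 1, 8.99 in IB 13, 8.11 in IB 6 and 7.77 in IB 12. Over all 14 IB piglets it ran from 4.88 through a median of 6.04 to 9.61, and over the DU×IB piglets from 4.61 through 5.40 to 7.15, with DU×IB 9, DU×IB 10 and DU×IB 6 highest in that group. The 4 IB piglets named came from both series, IB 1 and IB 6 from the one of 16 and IB 12 and IB 13 from the one of 12. Leaving out any 1 piglet kept the difference negative for all 24 probe sets and called none. The median difference moved most without IB 1 (-0.51) and without IB 13 (-0.57), and lay between -0.89 and -0.63 without each of the others. Between 2 and 5 of the 24 had an unadjusted p under 0.05 in these fits, with 2 when IB 1, IB 6 or IB 13 was left out.

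**Figure D2:**
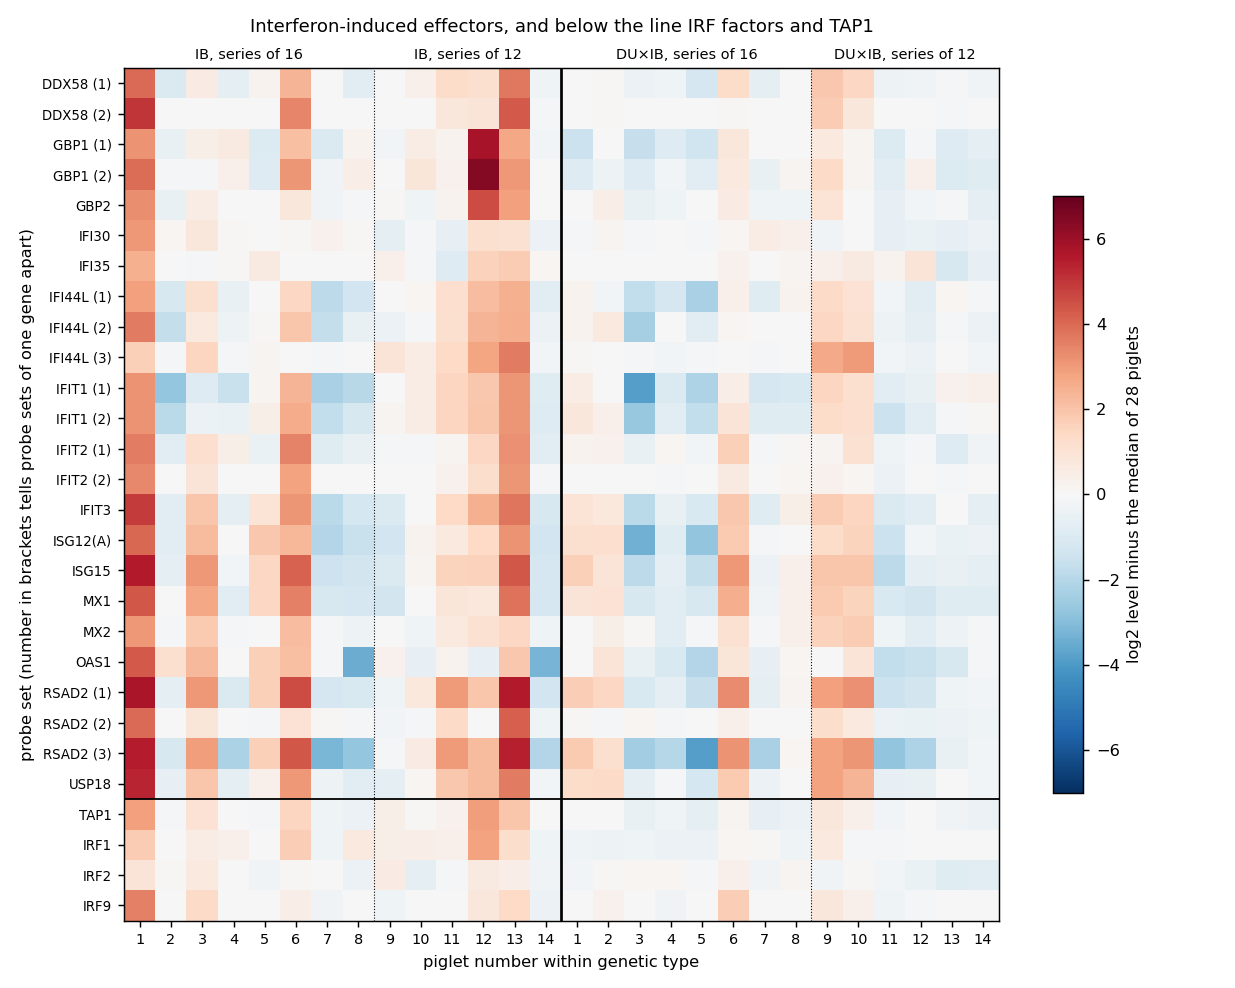
Level of each interferon-induced effector probe set, and below the line IRF factors and TAP1, in each of the 28 piglets, as log2 level minus the median of the 28 (red higher, blue lower). Columns are piglets ordered by genetic type and hybridization series. IB 1, IB 6 and IB 13 are red in most rows, and IB 12 is darkest in GBP1, GBP2, IRF1 and TAP1.

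The effectors varied together among piglets. After the means of genetic type and series were removed, the median correlation between pairs of the 24 probe sets over the 28 piglets was 0.76, beside 0.04 for pairs of all probe sets. It was 0.81 within IB and 0.70 within DU×IB. Arrays, RNA and any litter effects are shared by all probe sets of a piglet. Probe sets of one gene agreed closely for IFIT1 (r = 0.99), GBP1 (0.96), IFIT2 (0.94) and DDX58 (0.91). Those of RSAD2 lay between 0.71 and 0.98 and those of IFI44L between 0.68 and 0.92.

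The SDs of the effectors were larger among IB than among DU×IB piglets, as were those of most probe sets of the table. The crossbred piglets came from fewer litters, so genetic type and number of litters cannot be told apart in the spread. The SD within series was larger in IB for all 24 effectors, with a median of 1.79 in IB and 0.91 in DU×IB. Over all 81 members it was larger in IB for 69 (85.2%), beside 76.4% of all probe sets, but for only 3 of the 9 chemokine and receptor probe sets. A limma test on absolute deviations from the group medians, added after the values were seen, called no member (0.0191% of all probe sets). At an unadjusted p under 0.05 it gave 14 members, all more variable in IB (17.3%, beside 6.43% of all probe sets), among them IFIT2, IFIT3, IRF1, SLA-2, SLA-DRB1 and CXCL16.

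**Figure D3:**
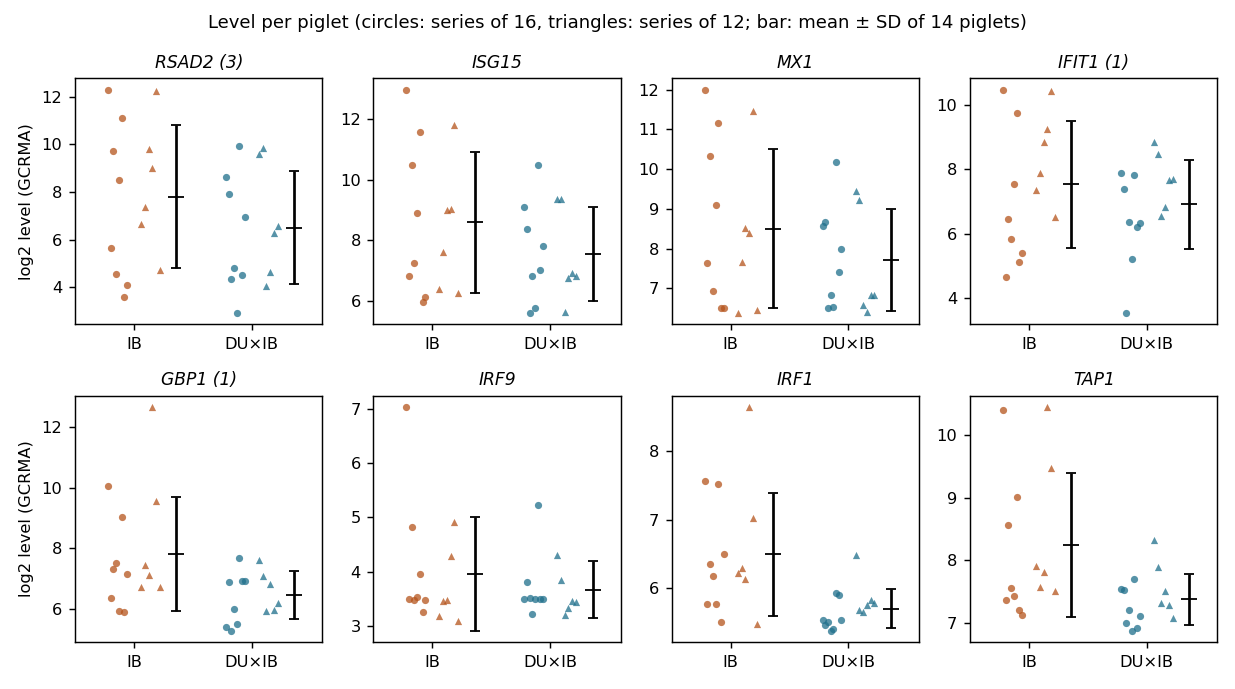
Log2 level per piglet for RSAD2, ISG15, MX1, IFIT1, GBP1, IRF9, IRF1 and TAP1 in IB and DU×IB, with circles for the series of 16, triangles for the series of 12 and bars for mean ± SD of 14 piglets. For each gene the highest piglet is IB, and the IRF1 levels of DU×IB lie in a narrow band at the low end.

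Among the transcription factors, IRF1 was lower in DU×IB and the other 6 probe sets did not pass the test. IRF1 is a factor induced by interferon gamma that in turn activates GBP and antigen presentation genes. Its probe set Ssc.19494.1.S1_at ranged in IB from 5.48 through 6.25 to 8.64. In DU×IB it ranged from 5.38 through 5.67 to 6.49, and all DU×IB piglets but DU×IB 9 lay below the IB median. The mean was 6.50 ± 0.90 (SD, n = 14) in IB and 5.70 ± 0.29 in DU×IB, a difference of -0.79 ± 0.24 (SE) or 1.73-fold (adjusted p = 0.0929). It was -0.81 within the series of 16 and -0.77 within the series of 12. The highest IB values came from IB 12 (8.64), IB 1 (7.56), IB 6 (7.52) and IB 13 (7.03). The call was lost in 19 of the 28 fits that left out 1 piglet: IB 1, 3, 6, 8, 9, 12 or 13, or any DU×IB piglet other than 6 and 9. Over the 28 fits the difference stayed between -0.89 and -0.63 and the adjusted p between 0.0425 and 0.146.

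IRF9, the DNA-binding partner of STAT proteins in the type I response, had medians of 3.48 and 3.49 in IB and DU×IB and 1 IB piglet, IB 1, at 7.03. IRF2, which competes with IRF1 for its sites, had a difference of -0.29 ± 0.16 (adjusted p = 0.432). STAT5A and STAT5B carry signals of growth hormone, prolactin and several cytokines. STAT5B had -0.24 and -0.26 and STAT5A had 0.09, with adjusted p-values from 0.465 to 0.903.

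In antigen presentation no probe set of 17 was called, and 1 was lower and 1 higher at an unadjusted p under 0.05. Of the 17 differences 11 were negative, beside 47.5% of all probe sets. TAP1 is a subunit of the pump that carries peptides into the endoplasmic reticulum for loading on class I molecules. Its IB levels ranged from 7.12 through 7.70 to 10.44 and its DU×IB levels from 6.88 through 7.31 to 8.33 (Ssc.27863.1.S1_at). Below the IB median lay 12 of 14 DU×IB piglets, and 5 IB piglets lay above all of them, with IB 12 (10.44) and IB 1 (10.40) highest. The difference was -0.86 ± 0.30 (unadjusted p = 0.00806, adjusted p = 0.160), -0.85 and -0.88 in the 2 series.

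Among the class I heavy chains, SLA-2 is a classical, highly polymorphic gene, while SLA-7 and SLA-8 are non-classical. The SLA-2 probe set and Ssc.23510.1.A1_s_at of SLA-8 carry a suffix that marks hybridization to more than 1 transcript, so their values may include related transcripts, which was not tested. SLA-8 had the largest positive difference of the role at Ssc.23510.1.A1_s_at, where IB ranged from 2.43 through 4.79 to 7.54 and DU×IB from 5.03 through 5.76 to 7.39. All 14 DU×IB piglets lay above the IB median, and 8 IB piglets lay below all DU×IB piglets. The difference was 1.05 ± 0.38 (unadjusted p = 0.0107, adjusted p = 0.183), 1.58 within the series of 16 and 0.33 within the series of 12. It was called in the fit without IB 3 (adjusted p = 0.0862) and with array weights (0.0929). The other SLA-8 probe set had 0.41 ± 0.28 (adjusted p = 0.571). SLA-2 had 0.07 ± 0.21 and SLA-7 had -0.25 ± 0.21.

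B2M, the light chain of all class I molecules, was represented by 6 probe sets that disagreed. Their differences ran from -0.27 to 0.24, with 4 negative and 2 positive, and adjusted p-values ran from 0.400 to 0.974. Correlations between them over the piglets ran from -0.32 to 0.52. Mean levels ran from 5.13 to 12.33.

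The class II genes SLA-DRA, SLA-DRB1, SLA-DQA1, SLA-DQB1 and SLA-DMB and the invariant chain CD74, which guides class II molecules to the compartment where peptides are loaded, differed by -0.37 to 0.13 between genetic types. Adjusted p-values ran from 0.528 to 0.836. SLA-DRA ranged from 7.39 through 9.14 to 11.96 in IB and from 7.76 through 8.94 to 9.67 in DU×IB. IB 1 was the highest of the IB piglets for all 6 probe sets and lay above all DU×IB piglets. The 6 probe sets moved together among piglets (median pairwise r 0.80 over the 28, 0.88 within IB and 0.40 within DU×IB).

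All 6 were lower in the series of 12 than in that of 16, with a median of -0.78 and adjusted p-values up to 0.00992, while over all probe sets the median was 0.57 higher in the series of 12. SLA-DRB1 differed most between series, by -1.44 ± 0.19 (SE). Of the 81 members, 44 (54.3%) differed between series, beside 80.1% of all probe sets, 19 higher (57.3% of all) and 25 lower (22.7% of all) in the series of 12. After each array was centred on its median the split was 7 higher and 37 lower (36.9% and 32.3% of all), and after quantile normalization 8 and 36 (40.9% and 30.9% of all), with medians over all probe sets of 0.09 and 0.15. Both genetic types were present in each series, and the labels do not say whether litters or sampling dates differed between the series.

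**Figure D4:**
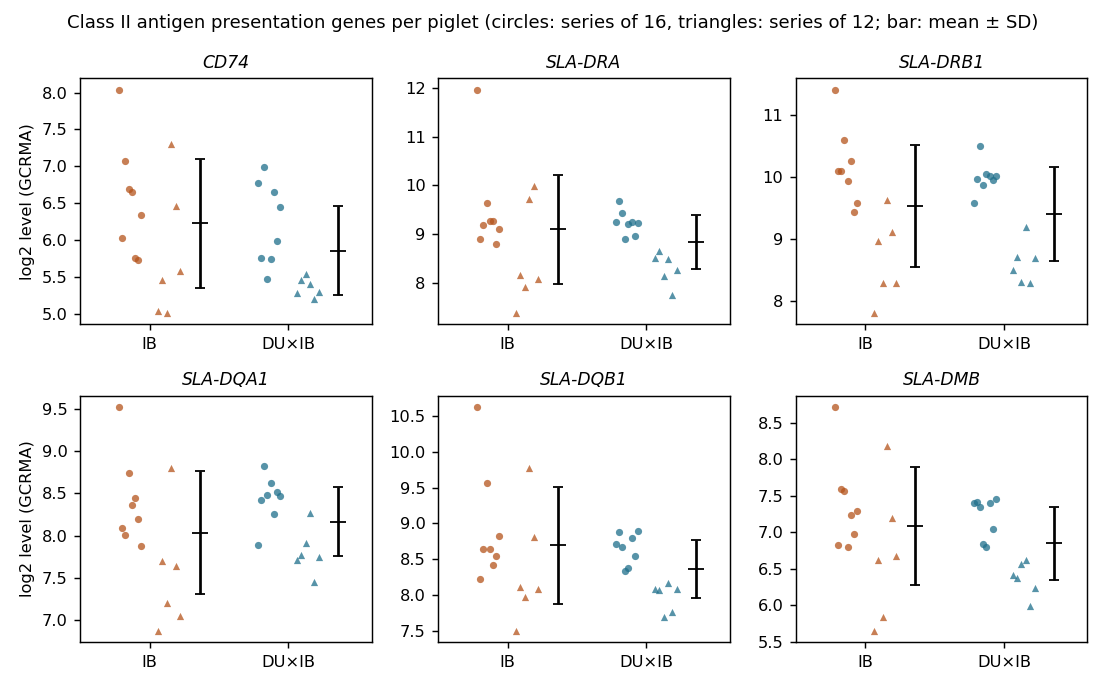
Log2 level per piglet for CD74 and the class II genes in IB and DU×IB, with circles for the series of 16, triangles for the series of 12 and bars for mean ± SD of 14 piglets. In each panel the highest circle is IB 1, and in DU×IB most triangles lie below the circles.

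Among chemokines and their receptors no probe set of 9 was called, and 8 differences were negative (beside 47.5% of all probe sets), 2 of them with an unadjusted p under 0.05. Within the series of 16 the difference was negative for 8 of the 9, and within the series of 12 for 5. CXCL2 attracts neutrophils. Its levels ranged in IB from 4.66 through 7.50 to 9.79 and in DU×IB from 4.73 through 5.48 to 8.16 (Ssc.4871.1.S1_at). Below the IB median lay 12 of 14 DU×IB piglets, though 3 IB piglets were below all of them. The difference was -1.02 ± 0.41 (unadjusted p = 0.0189, adjusted p = 0.242), -0.71 and -1.43 in the series of 16 and of 12, and the gene was 1.77 higher in the series of 12.

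CXCL12, which keeps cells that carry the receptor CXCR4 in place, ranged from 7.18 through 8.26 to 9.35 in IB and from 6.69 through 7.71 to 9.03 in DU×IB. Its difference was -0.55 ± 0.21 (unadjusted p = 0.0125, adjusted p = 0.200). Above all DU×IB piglets lay 2 IB piglets, and 5 DU×IB piglets lay below all IB piglets. CXCR4 itself differed by 0.09 ± 0.20. CXCL16, a chemokine that is also a scavenger receptor, lay near 2.1 in most piglets and reached 6.23 in IB 1, 5.57 in IB 13 and 3.99 in IB 3, against at most 3.02 in DU×IB. Its difference was -0.59 ± 0.37 (adjusted p = 0.532). The probe sets of CXCL14 had -0.28 and -0.33, and those of CCL4, CCL14 and CCL21 lay between -0.18 and -0.01, with adjusted p-values from 0.571 to 0.983.

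The interleukin and tumor necrosis factor members were few and none was called. IL10RB, a receptor subunit shared by IL10 and related cytokines, had -0.45 ± 0.21 (unadjusted p = 0.0417, adjusted p = 0.331). IL1B and its receptor IL1R1 had 0.04 ± 0.17 and 0.08 ± 0.20. TNFSF13, also called APRIL, which sustains plasma cells, ranged from 6.36 through 7.19 to 7.80 in IB and from 6.85 through 7.67 to 8.69 in DU×IB. Above the IB median lay 11 of 14 DU×IB piglets, and the difference was 0.47 ± 0.17 (unadjusted p = 0.00786, adjusted p = 0.160). TNFRSF1B, a receptor of tumor necrosis factor on immune cells and endothelium, had -0.38 ± 0.18 (unadjusted p = 0.0469, adjusted p = 0.353). TNFRSF12A, the receptor of the cytokine TWEAK, had 0.15 and 0.16 with standard errors over 0.5 and differed in sign between series. TNFAIP6, a secreted hyaluronan-binding protein, had -0.02 ± 0.11.

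In complement, C1QC, a chain of the C1q recognition complex, had levels from 6.91 through 7.92 to 10.18 in IB and from 6.57 through 7.64 to 8.36 in DU×IB. The difference was -0.50 ± 0.24 (unadjusted p = 0.0433, adjusted p = 0.337), and IB 1 was highest. C3, the central component that all complement routes cleave, reached 11.29 in IB 12, above the 8.91 of the next IB piglet, IB 9. Its difference was -0.39 ± 0.45 (adjusted p = 0.786), with 0.07 within the series of 16 and -1.001 within the series of 12.

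CD59, a membrane protein that stops the complement attack complex from forming pores in an animal's own cells, was higher in DU×IB at Ssc.20559.1.A1_at. The IB piglets ranged from 8.35 through 9.86 to 10.92, and the DU×IB piglets from 9.65 through 10.80 to 11.06. All DU×IB piglets but 1 lay above the IB median, and 6 IB piglets lay below all of them. The mean was 9.90 ± 0.77 (SD, n = 14) in IB and 10.68 ± 0.45 in DU×IB, a difference of 0.78 ± 0.23 (SE) or 1.72-fold (adjusted p = 0.0758). It was 0.90 within the series of 16 and 0.63 within the series of 12. The second CD59 probe set, Ssc.16055.1.S1_at, differed by -0.05 ± 0.18 (adjusted p = 0.956) and followed the first with r = 0.11 over the piglets. The call at the first was lost in 13 of the 28 fits that left out 1 piglet, IB 3, 8 or 11, or DU×IB 1, 4, 5, 7, 8, 9, 10, 12, 13 or 14. The adjusted p over the 28 fits ran from 0.0355 to 0.119. CD55, another inhibitor of complement on cell surfaces, had equal medians of 3.12 and a difference of 0.28 ± 0.17 (adjusted p = 0.531).

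The other CD antigens did not pass the test. CD163, the hemoglobin scavenger receptor of macrophages, had -0.50 ± 0.23 at Ssc.5053.1.S1_at (unadjusted p = 0.0416, adjusted p = 0.331) and -0.11 ± 0.20 at Ssc.11991.1.A1_at. CD163L1, a related receptor, had -0.32 ± 0.16 (unadjusted p = 0.0495, adjusted p = 0.359). CD38, an enzyme of lymphocytes and plasma cells that consumes NAD, had -0.42 ± 0.16 (unadjusted p = 0.0131, adjusted p = 0.201), with -0.11 in the series of 16 and -0.82 in the series of 12 (interaction unadjusted p = 0.0244, adjusted p = 0.717). CD163L1 and CD38 stand in the study's list of genes chosen on these same arrays, so their values are no independent evidence. The tetraspanins CD82 and CD151 had -0.28 and 0.06, and the sialomucin CD164 had -0.06.

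C1QTNF2, C1QTNF3 and C1QTNF6 encode secreted proteins whose C-terminal domain resembles that of C1q and adiponectin, and they are not complement genes. C1QTNF3 (Ssc.4231.1.A1_at) had the lowest adjusted p of the 81. Its IB levels ranged from 7.24 through 9.12 to 10.40 and its DU×IB levels from 8.62 through 10.26 to 11.03. All DU×IB piglets but 1 lay above the IB median and 5 lay above all IB piglets. The mean was 9.05 ± 0.85 (SD, n = 14) in IB and 10.14 ± 0.68 in DU×IB, a difference of 1.09 ± 0.25 (SE) or 2.13-fold (adjusted p = 0.0202), 0.98 and 1.24 in the 2 series. The call held whichever piglet was left out, with adjusted p-values from 0.00725 to 0.0430.

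C1QTNF6 (Ssc.27811.1.S1_at) ranged from 4.56 through 5.24 to 6.54 in IB and from 5.27 through 6.03 to 6.78 in DU×IB. All 14 DU×IB piglets lay above the IB median, and 8 IB piglets lay below all DU×IB piglets. The difference was 0.64 ± 0.18 (adjusted p = 0.0678), 0.54 and 0.78 in the 2 series. The call was lost in 11 of the 28 fits without 1 piglet (IB 1, 6, 9, 11, 12 or 13, or DU×IB 3, 7, 10, 12 or 14), where the adjusted p reached 0.124, and after median centring of the arrays (0.158) or quantile normalization (0.162). C1QTNF2 had 0.53 ± 0.18 (unadjusted p = 0.00619, adjusted p = 0.148) and was called in the fit without IB 4 (adjusted p = 0.0391). CCRN4L, which encodes nocturnin, an enzyme with a daily rhythm, had -0.75 within the series of 16 and 0.96 within the series of 12 (interaction unadjusted p = 0.00678).

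**Figure D5:**
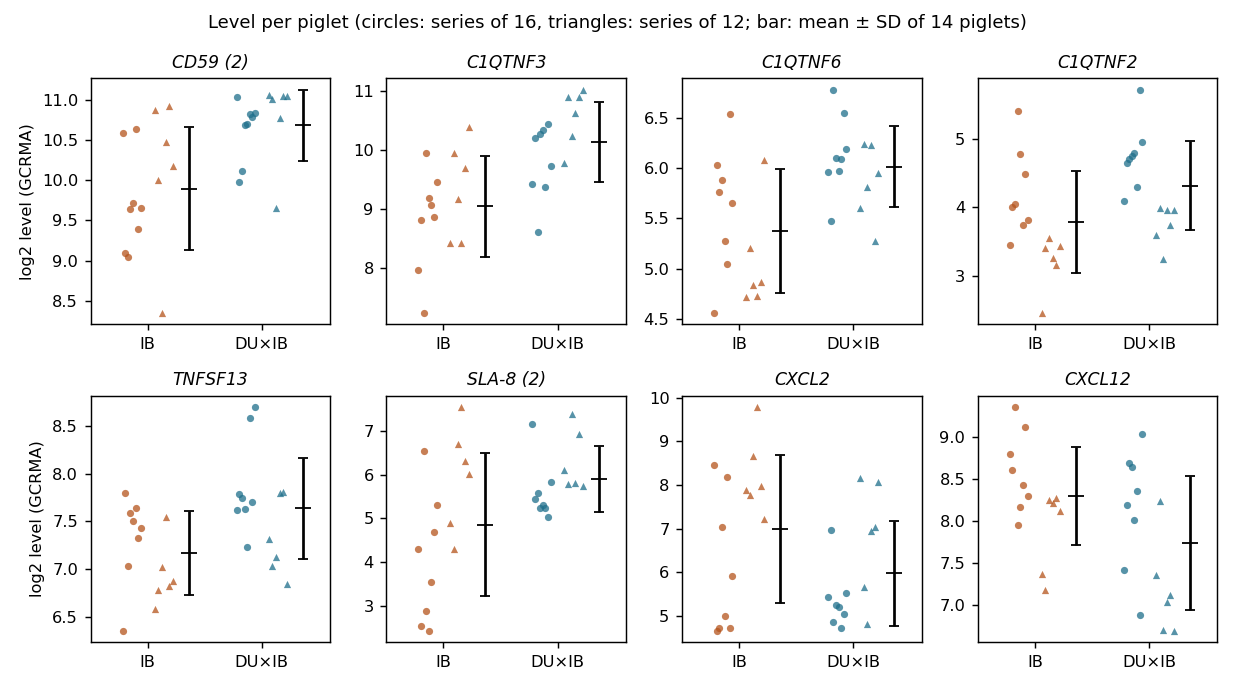
Log2 level per piglet for CD59, C1QTNF3, C1QTNF6, C1QTNF2, TNFSF13, SLA-8, CXCL2 and CXCL12 in IB and DU×IB, with circles for the series of 16, triangles for the series of 12 and bars for mean ± SD of 14 piglets. DU×IB means are higher in the first 6 panels and lower for CXCL2 and CXCL12.

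Other genes of these pathways also had mostly negative differences, and none passed the test over both series. Of 75 genes listed, 20 were measured by 21 probe sets, of which 19 had negative differences (beside 47.5% of all probe sets) with a median of -0.56. None was called by limma, and 4 had an unadjusted p under 0.05: C1R of complement (-0.68), CFD, a complement protease made mainly by adipocytes (-0.44), the inflammatory caspase CASP4 (-0.64) and NFKBIZ, a nuclear cofactor of NF-kappa-B (-0.76). NFKBIZ had -0.43 within the series of 16 and -1.20 within the series of 12, where it was called (adjusted p = 0.0935). CASP4 and NFKBIZ stand in the study's list of genes chosen on these same arrays, so their values are no independent evidence. The RNA-activated kinase EIF2AK2 had -0.35 ± 0.40, and the kinases JAK2 and TBK1 had -0.29 ± 0.16 and 0.11 ± 0.27. IB 1, IB 13 and IB 12 had ranks 1, 2 and 3 of the 28 piglets in the mean of this list, so IB 6 ranked below them.

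The mean of the marker list of macrophages and monocytes was highest in IB 1, IB 12 and IB 13. The endothelial, fibroblast, adipocyte and red blood cell lists ranked these piglets differently. IB 6, with an effector mean of 8.11, was not among the piglets highest for macrophages and monocytes. Its ranks in the lists were not taken. Of 13 listed genes of macrophages and monocytes 6 were measured by 8 probe sets (CD163, CTSS, AIF1, TYROBP, FCER1G and MRC1). All differences were negative (median -0.38), beside 47.5% of all probe sets, and none was called. Only 1, CD163 at Ssc.5053.1.S1_at, had an unadjusted p under 0.05. The CD163 probe sets are also members and those of CTSS are also in the pathway list, so this list is not separate from the counts above. The level of this list, as a mean over the probe sets, ran from 5.12 to 7.32 in IB and from 5.03 to 5.79 in DU×IB, with IB 1, IB 12 and IB 13 highest of the 28. The CD14, CD68, CSF1R, LYZ, MSR1, MARCO and ITGAM genes were not analysed here. No listed marker of T cells, natural killer cells or granulocytes was among the named probe sets, and of B and plasma cells only the member CD38. For endothelium 4 of 7 genes were measured by 6 probe sets and none was called. VWF had -0.50 ± 0.23 (unadjusted p = 0.0339), and the other 5 had positive differences. Within the series of 12, CLDN5 (1.04, adjusted p = 0.0902) and one of the PECAM1 probe sets (0.65, adjusted p = 0.0993) were called, with -0.44 and 0.0038 within the series of 16. IB 1 ranked 1 of the 28 in the mean of the endothelial list, and IB 13 and IB 12 ranked 22 and 27. Of the fibroblast genes, COL1A1 was higher in DU×IB (1.21 ± 0.29, adjusted p = 0.0270) and THY1 had 0.71 ± 0.22 (adjusted p = 0.110), with 0.38 within the series of 16 and 1.14 within the series of 12, where it was called (adjusted p = 0.0762). IB 1, IB 13 and IB 12 ranked 24, 25 and 28 for these. COL1A1 also stands in the study's list, so its call is no independent evidence. The adipocyte genes measured were 2 of 5, CFD (above) and FABP4 (0.37 ± 0.23, adjusted p = 0.513), with IB 1 at rank 1, IB 13 at 15 and IB 12 at 28. Of the red blood cell genes 2 of 5 were measured, HBB (0.13 ± 0.24) and ALAS2 (-0.0051 ± 0.23), with IB 12, IB 13 and IB 1 at ranks 4, 7 and 22. The part of these lists in the differences above was not tested.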

How the data were processed

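One porcine array per piglet was hybridized with loin muscle RNA of 14 IB and 14 DU×IB piglets. The deposited log2 values were made by the authors with GCRMA from scanned intensities, and the table is limited to 5226 probe sets that passed the study's filter on variation among arrays (in each, more than 20% of values lie 1.5-fold or more from its median). Values ran from 1.44 to 15.7 and array medians from 6.01 to 7.05. Detection calls were not used. Precision depends on how many piglets were hybridized. No value column was left unused. Genes were named from the study's lists (6 and 5 members) or the platform annotation (70 members), which can be old. A further 7 probe sets are assigned to several genes that include one of these families and were not named, and 12 members have a suffix that marks more than 1 transcript.

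Each probe set was fitted with limma 3.58.1 in R 4.3.3, with genetic type and hybridization series as effects as in the study's model, over all 28 arrays, two-sided, with Benjamini-Hochberg adjustment over all 5226. The labels do not name the series, so it was read from 3 bacterial spike-in probe sets at their largest gap. The labels number the piglets from 1 to 14 in each genetic type. Adjusted p under 0.10, the study's rate, was called. Alternatives were no covariate, replicate number as a block, each series alone, median centring, quantile normalization, another prior and array weights. Further alternatives were filters on dim probe sets (mean under 4) and on probe sets with such a suffix for several transcripts, a threshold of 0.05 and leaving out each piglet. The test of spread and the counts of effectors called under the alternatives were added after the values were seen. Named were members with an unadjusted p under 0.05, in each role the 2 of lowest p and the 2 of largest SD, all factors, chemokines and antigen presentation genes, and those in the study's list, and 1 of the factors is not reported here. Members and lists were chosen with earlier results of these data known. The fit was tested on simulated data. Figures used matplotlib 3.10.9.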

Additional observations from a re-analysis of the deposited data

How the results depend on the processing

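Of the 81 probe sets, 62 kept the sign of their difference and 56 both sign and call under all alternatives run. The count of members called, 4, became 1 without covariate, 0 in the series of 16, 1 in the series of 12 and 1 at a threshold of 0.05. The 3 higher became 1, 0, 1 and 1, and the 1 lower became 0 in each. Over all probe sets 145 calls became 52 without covariate, 9 in the series of 16, 229 in the series of 12 and 80 at a threshold of 0.05. Leaving out each piglet gave 1 to 5 members called, 1 to 4 higher, 0 to 1 lower and 0 effectors, beside 1.97% to 4.23% of all probe sets called. Median centring and quantile normalization gave 3, without C1QTNF6 (beside 2.33% and 2.91% of all probe sets), and array weights gave 5, adding SLA-8 (beside 5.28%). Piglets with the same number correlated with r from 0.0236 to 0.730 after removal of genetic type (12 of 14 pairs over 0.1). After removal of the series as well, r ran from -0.326 to 0.538 (2 of 14 pairs over 0.1). The labels do not say whether such piglets share more than a number. With the replicate number as a block 5 members were called, adding C1QTNF2, of 145 in all. Differences changed sign in the series of 12 for B2M (0.10 and 0.31), SLA-2 (-0.070), CCL14 (0.36), CCL21 (0.12), CCL4 (0.10), CD59 at Ssc.16055.1.S1_at (0.20) and CCRN4L (0.96). They did in the series of 16 for B2M (-0.040), C3 (0.072), IL1R1 (-0.014), CD151 (-0.057), CD163 (0.29), CD164 (0.14), STAT5A (-0.060) and TNFRSF12A (-0.39 and -0.31). With quantile normalization B2M (0.048) and IL1B (-0.039) changed sign, and with array weights CCL14 (0.0024), CD59 (0.10) and TNFRSF12A (-0.12 and -0.083). Leaving out 1 piglet changed the sign of small differences of B2M (-0.076 to 0.041 and -0.27 to 0.029), CCL14 (-0.099 to 0.046), CCRN4L (-0.15 to 0.12), CD163 (-0.18 to 0.0080), CD59 (-0.095 to 0.048), IL1B (-0.045 to 0.13), SLA-2 (-0.0030 to 0.21), TNFAIP6 (-0.059 to 0.022) and TNFRSF12A (-0.071 to 0.37 and -0.0026 to 0.39). The cause was not tested.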
